A study of Macaca mulatta with 20 samples.

Results

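Macrophages are tissue phagocytes, and in the primate corpus luteum, the ovarian gland that secretes progesterone after ovulation, they are among the resident leukocytes. Their growth and survival depend on the receptor CSF1R and its ligands CSF1 and IL34, and they are a main source of C1q, the recognition subunit of the classical complement pathway. VSIG4 is a complement receptor of resident macrophages, MSR1 a scavenger receptor for modified lipoproteins, CD14 a co-receptor for bacterial lipopolysaccharide, CD68 a lysosomal membrane glycoprotein and AIF1 an actin-binding protein. These roles are known from human and mouse.

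Macrophage marker genes were followed through rhesus macaque corpora lutea kept in simulated early pregnancy. All probe sets whose single gene symbol was CSF1R, VSIG4, C1QC, AIF1, CD14, CD68, CD163, MSR1 or C1QB were taken, whatever their values. This gave 11 of 52707 probe sets, from 8 of the 9 genes and 14132 gene symbols in all. CSF1R, VSIG4, C1QC, C1QB and CD14 had 1 probe set each, and AIF1, CD68 and MSR1 had 2 each. CD163 had none and was not analysed here.

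The tissue was whole corpora lutea of female macaques, hybridised to Affymetrix arrays, with 4 arrays in each of 5 groups. The baseline was untreated tissue of luteal day 10. The other 4 groups received human chorionic gonadotropin (hCG, the product Novarel), a hormone of pregnancy, by intramuscular injection. It was given 2 times per day from luteal day 9 at doses rising in steps from 15 to 2880 IU. These groups were collected on luteal days 10, 12, 15 and 18, so that hCG had been given for 1, 3, 6 or 9 days. Days of hCG, luteal age and dose rose together, and all untreated tissue was of day 10, so in the later groups these cannot be told apart. The labels count 4 corpora lutea per day and do not say whether each came from a separate animal, so the p-values reflect sample-to-sample spread that may be technical. In whole tissue, more macrophages and more of a transcript per macrophage cannot be told apart.

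The arrays were alike in brightness, with median signals of 31.6 to 46.4 and 28.7% to 36.5% of probe sets under a signal of 16. The number of arrays, not a read depth, limits the precision. The labels gave no batch. Replicate 2 of the untreated group, replicate 1 of hCG day 12 and replicate 2 of hCG day 15 stood apart on the third principal component, which held 8.40% of the variance, at -54.8 to -50.2 against -4.82 to 23.6 on the other 17 arrays. Calls of the marker genes that change without these 3 arrays are given both ways below, and those of other genes on hCG day 18 beside each gene list. Luteal cell markers were bright in all groups: 6 luteal cell genes, among them the cholesterol transporter STAR, summed to 48462 to 62362 on hCG day 18 arrays and to 47537 to 56930 on untreated arrays.

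CSF1R, VSIG4 and C1QC were higher after 9 days of hCG than in either day 10 group, by about the same factor. Relative to untreated tissue they were 2.08-fold, 2.22-fold and 2.12-fold higher, and relative to hCG day 10 tissue 2.20-fold, 2.51-fold and 2.29-fold higher. On hCG days 10, 12 and 15 none of the 11 probe sets passed the test against untreated tissue. Fold changes are on the log2(signal + 16) scale, tested with limma's moderated test and Benjamini-Hochberg adjustment over all 52707 probe sets, with errors as SE. On this scale the change of a dim probe set is understated.

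CSF1R had signals of 882, 589, 830 and 624 on the 4 hCG day 18 arrays, against 483, 468, 268 and 212 on the untreated arrays. On the 12 arrays of hCG days 10, 12 and 15 it lay between 242 and 418. All 4 day 18 arrays were above all 16 others. The log2 change was 1.06 ± 0.23 against untreated tissue (adjusted p = 0.012 by limma) and 1.14 ± 0.23 against hCG day 10 tissue (adjusted p = 0.0058 by limma). In rising order the group means ± SD were 298 ± 61.4 on hCG day 12, 323 ± 64.9 on hCG day 10, 333 ± 52.5 on hCG day 15, 358 ± 138 in untreated tissue and 731 ± 146 on hCG day 18 (n = 4 each). The first 4 of these overlapped with their neighbours in that order, and the day 18 arrays overlapped with none.

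Signals of the CSF1R ligands lay near or below the array medians of 31.6 to 46.4. CSF1 averaged 42.3 on hCG day 18 arrays and 31.5 on untreated arrays (log2 change 0.34 ± 0.37, adjusted p = 0.76 by limma). IL34 averaged 22.4 on hCG day 18 arrays and 20.1 on untreated arrays (0.06 ± 0.19, adjusted p = 0.94 by limma). Both were looked up because they are the ligands, after the values were known.

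VSIG4 had 1049, 484, 1039 and 571 on the hCG day 18 arrays, against 549, 401, 320 and 156 on the untreated arrays. The other 12 arrays lay between 219 and 409. The lowest day 18 array was below the brightest untreated one, and the day 18 arrays were above all 12 arrays of the earlier hCG days. The log2 change was 1.15 ± 0.30 against untreated tissue (adjusted p = 0.038 by limma) and 1.33 ± 0.30 against hCG day 10 tissue (adjusted p = 0.013 by limma). Group means ± SD were 273 ± 54.5 on hCG day 12, 288 ± 49.1 on hCG day 10, 354 ± 70.2 on hCG day 15, 356 ± 164 in untreated tissue and 786 ± 300 on hCG day 18, with every neighbouring pair in that order overlapping.

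C1QC, which encodes a C1q chain, had 2421, 1310, 1626 and 1112 on the hCG day 18 arrays, against 1256, 901, 620 and 383 on the untreated arrays. The other 12 arrays lay between 536 and 903. As for VSIG4, the day 18 arrays were above all arrays of hCG days 10, 12 and 15 and overlapped with 1 bright untreated array. The log2 change was 1.08 ± 0.28 against untreated tissue (adjusted p = 0.035 by limma) and 1.20 ± 0.28 against hCG day 10 tissue (adjusted p = 0.016 by limma). The order of the group means was the same as for VSIG4, with 621 ± 64.7 on hCG day 12 at the low end and 1617 ± 576 on hCG day 18 at the high end, and all neighbours in it overlapped.

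C1QB, the gene of another C1q chain, had 3033, 1589, 2377 and 1271 on the hCG day 18 arrays, against 1424, 1612, 666 and 477 on the untreated arrays and 936, 672, 1001 and 677 on the hCG day 10 arrays. The day 18 arrays were above the hCG day 10 arrays and overlapped with the untreated ones. The log2 change was 1.26 ± 0.34 against hCG day 10 tissue (2.39-fold, adjusted p = 0.035 by limma). Against untreated tissue it was of similar size, 1.06 ± 0.34, without passing the test (adjusted p = 0.094 by limma). It passed there without untreated replicate 2, one of the 3 arrays apart (1.33, adjusted p = 0.041 by limma), and without all 3 of them (adjusted p = 0.043).

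**Figure D1:**
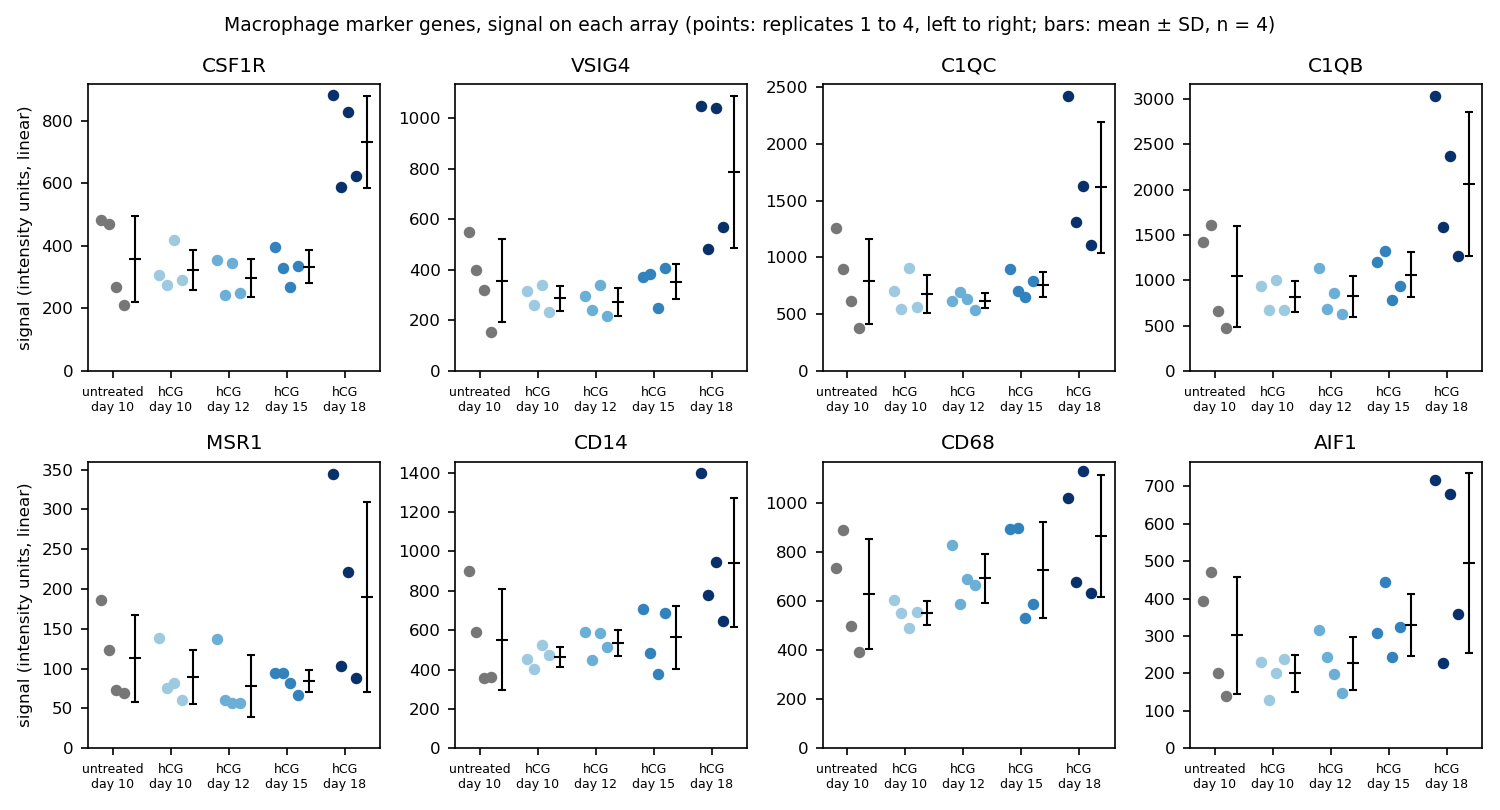
Signal of the brightest probe set of each of the 8 macrophage marker genes on each array, on a linear scale from 0 (vertical axis, intensity units), for the 5 groups (horizontal axis). Points are the 4 arrays of a group in replicate order and bars are the mean ± SD. In CSF1R the 4 hCG day 18 arrays (589 to 882) lie above all 16 others, and in every other gene shown they overlap with the untreated arrays.

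CD14 had 1400, 777, 948 and 647 on the hCG day 18 arrays, against 898, 593, 357 and 360 on the untreated arrays and 453, 405, 522 and 475 on the hCG day 10 arrays. It was 1.93-fold higher on day 18 than in hCG day 10 tissue (log2 change 0.95 ± 0.27, adjusted p = 0.049 by limma), just inside the threshold and outside it without the 3 arrays apart (adjusted p = 0.072). Against untreated tissue the change of 0.80 ± 0.27 did not pass (adjusted p = 0.12 by limma), with overlapping arrays.

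AIF1, CD68 and MSR1 did not pass the test in any comparison. For AIF1, the brighter probe set had 716, 227, 678 and 360 on the hCG day 18 arrays, against 394, 472, 201 and 140 on the untreated arrays and 231, 130, 201 and 239 on the hCG day 10 arrays. Replicates 1 and 3 of day 18 were above all untreated arrays, and replicates 2 and 4 lay within their range. The change was 0.69 ± 0.37 against untreated tissue (adjusted p = 0.39 by limma) and 1.13 ± 0.37 against hCG day 10 tissue (adjusted p = 0.084 by limma).

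CD68 had 1019, 677, 1130 and 632 on the hCG day 18 arrays, against 735, 888, 499 and 394 on the untreated arrays and 604, 552, 488 and 556 on the hCG day 10 arrays. Its changes were the smallest among the brightest probe sets of the 8 genes, 0.47 ± 0.24 (95% interval -0.03 to 0.98) against untreated tissue and 0.60 ± 0.24 (0.10 to 1.10) against hCG day 10 tissue (adjusted p = 0.36 and 0.18 by limma). Its 4 day 18 arrays were nevertheless all above the 4 hCG day 10 arrays. MSR1 had 345, 103, 222 and 88 on the hCG day 18 arrays, against 186, 124, 73 and 69 on the untreated arrays. Replicates 2 and 4 of day 18 were within the untreated range, and the change was 0.58 ± 0.36 (adjusted p = 0.5 by limma).

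The second probe sets of AIF1, CD68 and MSR1 were dim, and their array-to-array pattern was less like that of the bright ones. The dim AIF1 probe set lay between 57 and 122 on all 20 arrays, with 79, 122, 97 and 84 on hCG day 18 arrays and 69, 71, 73 and 61 on untreated arrays (change 0.38 ± 0.15, adjusted p = 0.21 by limma). The dim CD68 and MSR1 probe sets changed by 0.22 ± 0.23 and 0.18 ± 0.22 against untreated tissue (adjusted p = 0.75 and 0.79 by limma). The 3 dim probe sets correlated at -0.10 to 0.53 (median 0.14, 24 pairs) with the brightest ones across the 20 arrays after group means were subtracted. The dim CD68 and MSR1 probe sets were outside the brighter 50% of the array by mean signal, and the other 9 were inside it.

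**Figure D2:**
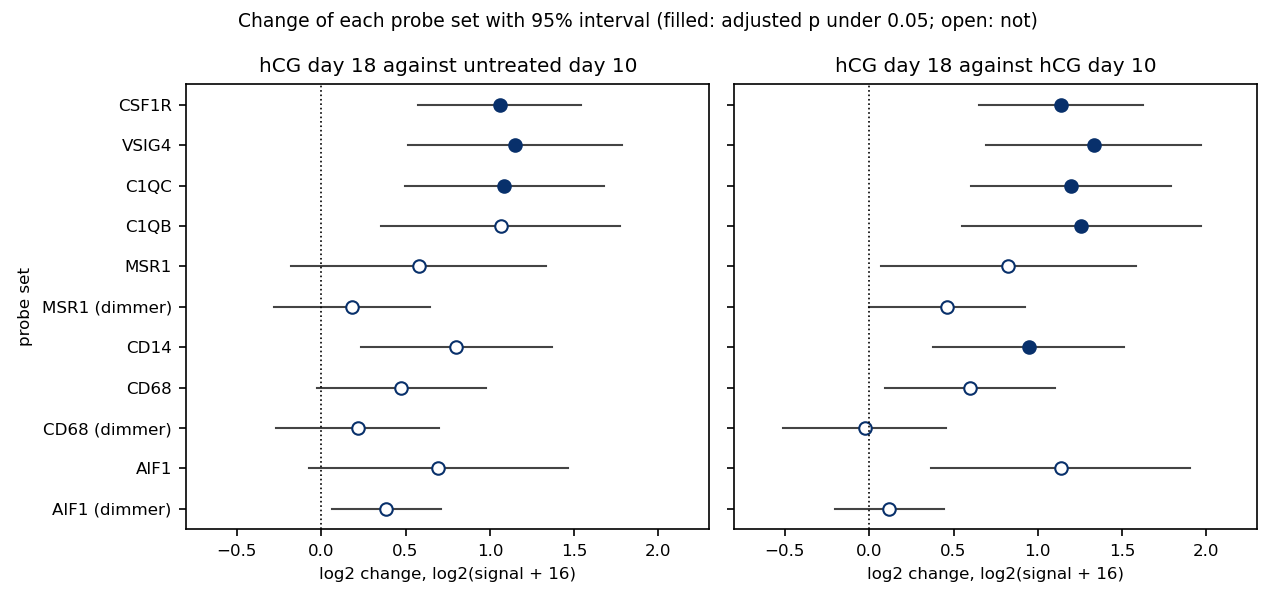
log2 change of each of the 11 probe sets (vertical axis) on hCG day 18 against untreated day 10 (left) and against hCG day 10 (right), with its 95% interval from limma, for 4 arrays against 4. Filled points passed an adjusted p of 0.05: 3 probe sets on the left and 5 on the right, all higher on day 18.

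Counted over the 11 probe sets, 3 were higher and none lower on hCG day 18 than in untreated tissue (CSF1R, VSIG4 and C1QC), where 3.90% of all probe sets were called in either direction and 1.87% as higher. Most of the 11 were in the brighter 50% of the array, and with those probe sets fitted alone 8.95% were called in either direction. All 11 changes were above 0, with a median of 0.69, against -0.03 over all probe sets. Relative to hCG day 10 tissue, 5 were higher and none lower (the same genes with C1QB and CD14), where 5.21% of all were called and 2.25% as higher. There 10 of 11 changes were above 0, with a median of 0.95, against 0.03 over all. The 2 comparisons share the day 18 arrays and are not independent of each other.

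The day 18 arrays lay wholly above the untreated ones for 2 of the 11 probe sets, CSF1R and the dim AIF1 probe set, where 4.79% of all probe sets did. They lay wholly above the hCG day 10 arrays for 6 of the 11, where 5.60% of all did. In the test for any difference among the 4 hCG groups and untreated tissue, CSF1R, VSIG4 and C1QC passed (adjusted p = 0.0098, 0.033 and 0.035 by limma), 3 of 11, where 4.52% of all probe sets passed. With the brighter 50% of probe sets fitted alone, 10.4% passed.

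No probe set of these genes was called on hCG day 10, 12 or 15 against untreated tissue, where 0.954%, 0.288% and 1.29% of all were called. None of the 11 reached an unadjusted p under 0.05 in these comparisons either, where 12.4%, 10.6% and 11.9% of all did. The intervals bound the changes: for CSF1R on hCG day 15 the log2 change was -0.03 with a 95% interval of -0.52 to 0.45, for VSIG4 it was 0.09 with -0.54 to 0.73, and for C1QC it was 0.07 with -0.53 to 0.66. A change of the size seen on day 18 lay outside all 3 intervals. The medians of the 11 changes were -0.15, -0.19 and 0.09 on days 10, 12 and 15, against -0.05, -0.06 and -0.05 over all probe sets.

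Between consecutive hCG groups none of the 11 was called: none on day 12 against day 10, where 0.518% of all probe sets were, and none on day 15 against day 12 or on day 18 against day 15, where limma called 0 probe sets of the whole array. In the first and second of these, none of the 11 had an unadjusted p under 0.05, where 8.28% and 5.13% of all did. On day 18 against day 15, 6 of the 11 had an unadjusted p under 0.05, where 7.00% of all did, and 3 had day 18 arrays wholly above the day 15 ones, where 2.03% of all did. These 3 were CSF1R, VSIG4 and C1QC, with log2 changes of 1.09 ± 0.23, 1.06 ± 0.30 and 1.02 ± 0.28 (adjusted p = 0.32, 0.45 and 0.42 by limma). All 11 changes were above 0, with a median of 0.71, against 0.03 over all. The step between days 15 and 18 was thus as large as the change against untreated tissue for these 3 genes and did not pass the adjusted test.

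The calls against untreated tissue rested on few arrays, except that of CSF1R. CSF1R passed there in 28 of 29 alternative fits, the exception being the fit on the 8 arrays alone (adjusted p = 0.073 by limma). VSIG4 and C1QC each lost the call in 8 of 29, among them the fits without the lowest untreated array, replicate 4 (adjusted p = 0.12 and 0.11), without hCG day 18 replicate 1 (0.12 for both) or replicate 3 (0.12 and 0.084), without untreated replicate 3 (0.089 and 0.1) and without the 3 arrays apart (0.072 and 0.063). Against hCG day 10 tissue, CSF1R passed in all 29, VSIG4 failed without day 18 replicate 1 (0.053) or 3 (0.051), C1QC without day 18 replicate 1 (0.065) or hCG day 10 replicate 2 (0.051), C1QB in 8 and CD14 in 18. AIF1 passed there in 3 of 29, without day 18 replicate 2 (1.45, adjusted p = 0.027 by limma), with array weights (0.044) and with the brighter 50% of probe sets (0.048). CD14 passed against untreated tissue without untreated replicate 1 (1.06, adjusted p = 0.026 by limma).

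Pooled over the 5 groups, the marker genes tended to rise and fall together around their group means. With each group's mean subtracted, the brightest probe sets of the 8 genes correlated at 0.64 to 0.92 in their 28 pairs over the 20 arrays (median 0.79), highest for CSF1R with C1QB. This did not hold for every pair within each group: hCG day 10 replicate 3 was the highest of its group for CSF1R and the lowest for CD68. As a description of single arrays, the mean log2 difference of CSF1R, VSIG4, C1QC and AIF1 from their untreated means was 1.52, 0.48, 1.33 and 0.66 on hCG day 18 replicates 1 to 4, against 0.63, 0.46, -0.24 and -0.85 on untreated replicates 1 to 4. The untreated group was therefore spread out, with replicates 1 and 2 high and replicate 4 the lowest of its group for 8 of the 11 probe sets. On day 18, replicate 1 was the highest for 8 of the 11 and replicate 4 the lowest for 7.

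The spread of these genes between replicates stood furthest above that of the array as a whole in hCG day 18 and untreated tissue. The median SD of the 11 probe sets, on the log2 scale, was 0.48 on hCG day 18 and 0.59 in untreated tissue, where the median over all probe sets was 0.24 and 0.23. On hCG days 10, 12 and 15 it was 0.27, 0.20 and 0.30, against 0.25, 0.27 and 0.27 over all probe sets. The whole-array median signal was 43.9, 41.1, 41.5 and 41.8 on hCG day 18 replicates 1 to 4, against 44.6, 40.6, 45.1 and 46.4 on untreated replicates 1 to 4, and its part in this spread was not tested.

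**Figure D3:**
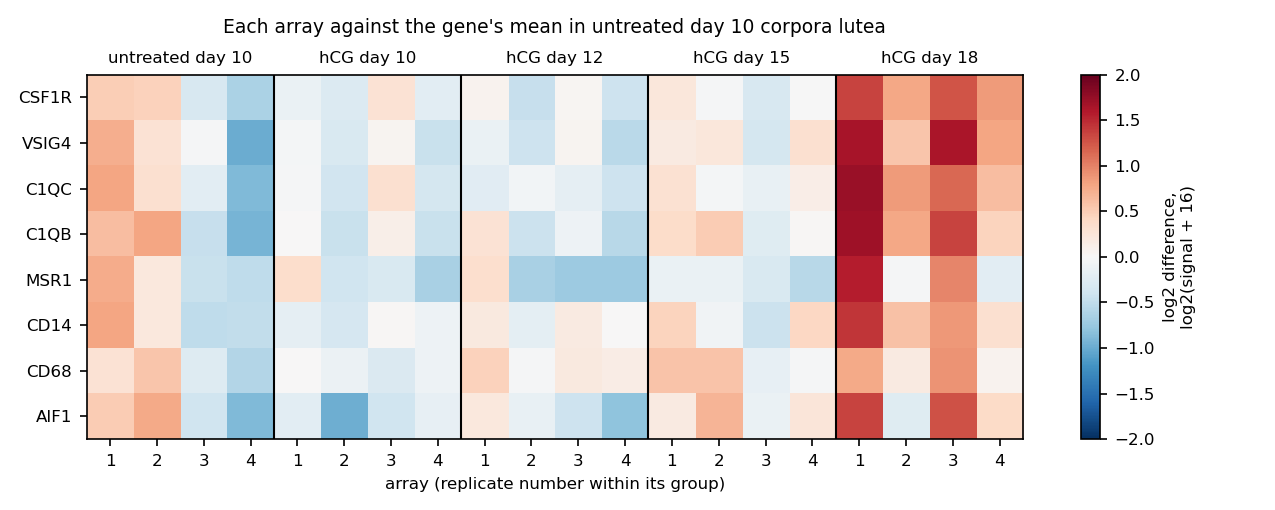
Colour map of the log2 difference of each array (columns, replicates 1 to 4 within each of the 5 groups) from the gene's mean in untreated day 10 tissue, for the brightest probe set of each of the 8 genes (rows). Red is above and blue below that mean. Replicates 1 and 3 of hCG day 18 and untreated replicates 1 and 2 are red in every row. Untreated replicates 3 and 4, hCG day 10 replicates 2 and 4 and hCG day 15 replicate 3 are blue in every row. So is hCG day 12 replicate 2. The other columns mix colours: hCG day 18 replicate 2 runs from -0.24 for AIF1 to 0.85 for C1QC.

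C1QB, C1QC and C1QA follow one another as protein-coding genes in the RefSeq annotation of assembly T2T-MMU8v2.0. C1QA, which encodes the remaining C1q chain, has 2 probe sets, and they disagreed. The brighter one averaged 3480 ± 962 on hCG day 18, against 2000 ± 930 in untreated tissue and 1626 ± 281 on hCG day 10. It was like the other C1q genes, with changes of 0.89 ± 0.29 against untreated tissue (adjusted p = 0.1 by limma) and 1.07 ± 0.29 against hCG day 10 tissue (adjusted p = 0.039 by limma, lost in 7 of 29 alternative fits).

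The dimmer C1QA probe set went the other way. It averaged 121 ± 43.9 on hCG day 18, against 282 ± 43.4 in untreated tissue and 827 ± 160 on hCG day 10. It was 1.49 ± 0.29 higher on hCG day 10 than in untreated tissue (log2, adjusted p = 0.016 by limma) and 1.16 ± 0.29 lower on day 18, as a log2 change of -1.16 (adjusted p = 0.029 by limma). On hCG day 18 against hCG day 10 its log2 change was -2.65 ± 0.29 (adjusted p = 1.9e-05 by limma). In that comparison the 2 probe sets were thus called in opposite directions. Which of the 2 follows C1QA transcript was not tested, and the C1q account here rests on C1QC, C1QB and the brighter C1QA probe set.

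**Figure D4:**
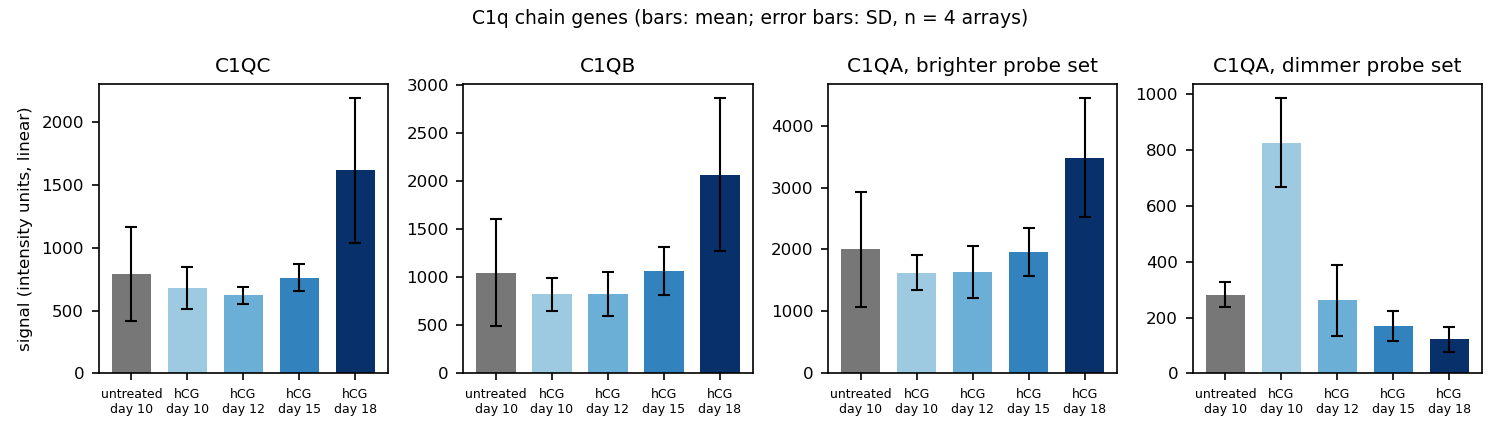
Mean signal ± SD (vertical axis, intensity units, linear from 0; n = 4 arrays) of the C1q chain genes in the 5 groups. C1QC, C1QB and the brighter C1QA probe set are highest on hCG day 18, whereas the dimmer C1QA probe set peaks on hCG day 10 at 827 and is lowest on day 18 at 121.

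Among 8881 genes with 1 symbol and a mean signal of at least 64, those most like the mean of CSF1R, VSIG4, C1QC and AIF1 over the 20 arrays, with group means subtracted, were TGFBI (r = 0.93), C1QA (0.92, brighter probe set), NCF4 (0.92), CD53 (0.91), C5AR1 (0.90), LOC716425 (0.89), LPXN (0.88) and PYCARD (0.87). The median correlation over all these genes was -0.03 and the 99th percentile 0.68. With group means kept, the 8 most alike were C1QA (0.96), CD53 (0.95), C5AR1 (0.94), NCF4 (0.93), LOC716425 (0.92), TYROBP (0.91), CD163L1 (0.91) and SLA (0.91). The points share array and scaling, so these values are descriptions. CD163L1 is the neighbour of CD163 in the same annotation and is a separate gene.

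A list of 34 other macrophage genes, of which 27 were measured with 1 probe set each, was mostly above 0 too. On hCG day 18, 3 were higher and none lower than in untreated tissue and 23 of 27 changes were above 0, with a median log2 change of 0.60. Over all 14132 genes measured this way, 2.78% were called as higher, 6.09% in either direction, and the median was -0.03. In the comparison with hCG day 10 tissue 7 were higher and none lower, with a median of 0.93. There 2.87% of all genes were called as higher, 7.97% in either direction, and the median was -0.01. At an unadjusted p under 0.05, 21.1% of all genes passed against untreated tissue and 23.2% against hCG day 10 tissue. These shares are the measure for the gene lists that follow. The summed signal of the 27 genes was 20831 to 35715 on hCG day 18 arrays, 12194 to 22071 on untreated arrays and 11456 to 16395 on hCG day 10 arrays.

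SLC11A1, a metal transporter of the macrophage phagosome, had 1020, 1794, 1289 and 1435 on the hCG day 18 arrays, against 385, 352, 380 and 297 on the untreated arrays. It was already higher on hCG day 15, with 993, 834, 667 and 1216, where none of the 8 marker genes passed the test, and its arrays did not overlap with the untreated ones on either day. Its log2 change was 1.32 ± 0.21 on day 15 (adjusted p = 0.0024 by limma) and 1.90 ± 0.21 on day 18 (adjusted p = 2.9e-05 by limma), and both calls held in all 29 alternative fits. SLC11A1 did not follow the marker genes from array to array. With group means subtracted, it correlated at -0.04 over the 20 arrays with the mean of CSF1R, VSIG4, C1QC and AIF1. On day 18 it was lowest on replicate 1, the highest replicate for 8 of the 11 marker probe sets.

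SIGLEC1, a sialic acid receptor of macrophages, had 634, 514, 493 and 377 on the hCG day 18 arrays, against 337, 252, 180 and 153 on the untreated arrays. Its arrays did not overlap, and the change of 1.11 ± 0.22 (adjusted p = 0.0056 by limma) held in all 29 alternative fits. FOLR2, a folate receptor of resident macrophages, averaged 558 ± 199 on hCG day 18 and 256 ± 129 in untreated tissue, a change of 1.13 ± 0.28 (adjusted p = 0.029 by limma) that was lost in 9 of 29, among them the fit without the 3 arrays apart (0.11).

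Against hCG day 10 tissue, the further genes of this list with the smallest adjusted p were TYROBP, a signalling adaptor of myeloid receptors, and LYZ, lysozyme. TYROBP averaged 1519 ± 534 on hCG day 18 and 623 ± 207 on hCG day 10 (1.26 ± 0.28, adjusted p = 0.012 by limma). LYZ averaged 3464 on hCG day 18 and 1216 on hCG day 10 (1.38 ± 0.36, adjusted p = 0.029 by limma), and was lost in 8 of 29 alternative fits, TYROBP in 1. The count of 7 ran between 2 and 12 over the alternatives.

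Of 15 measured genes around CSF1R signalling and its transcription factors, 2 were higher on hCG day 18 than in untreated tissue and none lower, with a median change of 0.19, where 2.78% of all genes were higher. PTPN6, a phosphatase that restrains signalling in leukocytes, had 465, 379, 412 and 290 on the hCG day 18 arrays, against 185, 190, 134 and 112 on the untreated arrays (1.24 ± 0.31, adjusted p = 0.028 by limma, lost in 6 of 29 alternative fits). CEBPA, a transcription factor of myeloid cells that is active in other cell types too, was higher than in untreated tissue from hCG day 10 on. Its log2 changes were 1.76, 1.86, 2.13 and 1.95 on hCG days 10, 12, 15 and 18 (each ± 0.26, adjusted p = 0.002, 0.0029, 0.00046 and 0.00021 by limma), whereas none of the 8 marker genes passed on days 10, 12 and 15. PLCG2, a signalling phospholipase, passed on hCG day 12 (2.39 ± 0.49, adjusted p = 0.038 by limma, lost in 13 of 29), and without the 3 arrays apart also on days 10 and 15 (adjusted p = 0.045 and 0.013). On hCG day 18 against hCG day 10, PTPN6 was higher (1.33 ± 0.31, adjusted p = 0.015 by limma, lost in 1 of 29) and the transcription factor RUNX1 lower (-1.07 ± 0.20, adjusted p = 0.0037 by limma). IRF8 was lower too without the 3 arrays (-0.94 ± 0.24, adjusted p = 0.028 by limma).

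Of 12 measured complement genes none was called on hCG day 18 against untreated tissue (4 with an unadjusted p under 0.05), with a median change of 0.46. Without the 3 arrays apart 2 were higher there, C1QA by its brighter probe set (1.12 ± 0.28, adjusted p = 0.043 by limma) and C1S, a protease of the C1 complex (0.81 ± 0.19, adjusted p = 0.028 by limma). In that fit 2.95% of all probe sets were called in either direction. Higher than in hCG day 10 tissue were 2, C1QA by its brighter probe set and CFD, with a median of 0.56. CFD, the protease of the alternative pathway, changed by 0.95 ± 0.22 (adjusted p = 0.015 by limma, lost in 2 of 29 alternative fits). Without the 3 arrays C1S was higher there too (adjusted p = 0.016 by limma). Of 10 measured genes of scavenging and lipid uptake, SCARA5, a scavenger receptor that takes up ferritin, was higher than in untreated tissue, at 139 on hCG day 18 and 46.4 in untreated tissue (1.25 ± 0.25, adjusted p = 0.0061 by limma). The median of these 10 was 0.33. CXCL16 was higher than on hCG day 10 (0.61 ± 0.16, adjusted p = 0.032 by limma), and CD5L passed on hCG day 15 (0.79 ± 0.17, adjusted p = 0.024 by limma). Each of the 2 calls was lost in 8 or 9 of 29 alternative fits, and that of CD5L without the 3 arrays apart (0.11).

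Of 7 measured genes of lipopolysaccharide sensing, none was called against untreated tissue (3 with an unadjusted p under 0.05, where 21.1% of all genes had one). Relative to hCG day 10 tissue the receptor TLR2 and LY96, the co-factor of the receptor TLR4, were higher (both 1.03, ± 0.25 and ± 0.27, adjusted p = 0.017 and 0.034 by limma, lost in 2 and 8 of 29 alternative fits). Of 13 measured chemoattractants and receptors of monocytes, none was called against untreated tissue (4 with an unadjusted p under 0.05), and CCL5 was higher than on hCG day 10 (0.82 ± 0.22, adjusted p = 0.033 by limma, lost in 8 of 29). Of 10 measured macrophage cytokines, none was called on day 18 against untreated tissue (1 with an unadjusted p under 0.05), the interleukin-1 receptor antagonist IL1RN was higher than on hCG day 10 (1.36 ± 0.34, adjusted p = 0.025 by limma, lost in 4 of 29), and IL18 was lower on hCG day 12 than in untreated tissue (-1.42 ± 0.29, adjusted p = 0.038 by limma, lost in 15 of 29 alternative fits, among them that without the 3 arrays, 0.13).

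Among 10 measured pan-leukocyte genes, 1 passed the test on hCG day 18 against untreated tissue and 5 against hCG day 10 tissue. CD48, a surface protein of leukocytes, was higher on hCG day 18 than in untreated tissue (927 ± 338 and 373 ± 56.9, change 1.22 ± 0.24, adjusted p = 0.0052 by limma). Higher than in hCG day 10 tissue were 5, CD48, RAC2, PTPRC, LCP1 and CD53, by 0.87 to 1.36. The list medians were 0.45 and 0.81, and its summed signal was 19308 to 22609 on hCG day 18 arrays, 13682 to 17309 on untreated arrays and 12398 to 15931 on hCG day 10 arrays. The part of a rise of leukocytes in general in the macrophage result was not tested. With only the 8 arrays compared the count of 5 was 1, and without the 3 arrays apart it was 4, CD53 missing (adjusted p = 0.053). Of 13 listed MHC class II genes, 4 were measured. MAMU-DRA was higher than on hCG day 10 (0.88 ± 0.19, adjusted p = 0.0085 by limma), and none was called against untreated tissue. Without the 3 arrays apart 3 were higher than in untreated tissue (CD74, MAMU-DMA and MAMU-DRA, by 0.66 to 1.40), where 2.95% of all probe sets were called in either direction. The count against hCG day 10 tissue was also 3 without these arrays.

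Markers of T cells and B cells were mostly dim. Of 6 measured T cell genes none was called by limma in either day 18 comparison, and none had an unadjusted p under 0.05. They summed to 306 to 481 on hCG day 18 arrays and 353 to 515 on untreated arrays, with medians of 0.05 and 0.32 against untreated and hCG day 10 tissue, and 1 was under 16 on all arrays of both groups. Of 6 measured B cell genes none was called and 1 had an unadjusted p under 0.05 in each (sums of 154 to 267 on hCG day 18 and 127 to 161 in untreated tissue). Of 9 dendritic cell genes and 5 mast cell genes none was called, with median changes of 0.11 and 0.09 against untreated tissue, where 2 and 0 had an unadjusted p under 0.05. Of 6 natural killer cell genes, GZMA was higher than in untreated tissue (0.91 ± 0.19, adjusted p = 0.010 by limma), and the list median was -0.01. These 6 genes were brighter as a sum, at 13112 to 16324 on hCG day 18 arrays and 7874 to 13965 on untreated arrays. Without the 3 arrays apart KLRD1 was lower than on hCG day 10 (-0.34 ± 0.09, adjusted p = 0.038 by limma).

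Of 6 measured neutrophil genes, S100A8, an inflammatory protein of neutrophils and monocytes, had 492, 1595, 78 and 144 on the hCG day 18 arrays, against 59, 30, 37 and 16 on the hCG day 10 arrays. The lowest day 18 array was little above the highest hCG day 10 one (2.75 ± 0.74, adjusted p = 0.036 by limma, lost in 8 of 29 alternative fits), and the replicate highest in S100A8, 2, was not one of those highest in the macrophage genes. The other 5 neutrophil genes were not called against hCG day 10 tissue. Against untreated tissue none of the 6 was called on hCG day 18 (1 with an unadjusted p under 0.05). The part of other leukocytes in the macrophage result was not tested.

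Among tissue cells, the luteal enzyme HSD3B2, which makes progesterone, was lower on hCG day 18 than in untreated tissue (2340 ± 447 and 8320, log2 change -1.83 ± 0.21, adjusted p = 4.4e-05 by limma), and the other 5 luteal genes were not called. Of 8 measured fibroblast genes, THY1 was lower (-1.06 ± 0.17, adjusted p = 0.0013 by limma). None of 13 endothelial, 5 smooth muscle and pericyte, 4 erythrocyte and 13 interferon response genes was called by limma in either day 18 comparison. At an unadjusted p under 0.05 against untreated tissue there were 0, 1, 1 and 0 of them. On hCG day 10 the endothelial factor SOX17 was lower than in untreated tissue (-0.67 ± 0.16, adjusted p = 0.047 by limma, lost in 22 of 29 alternative fits, among them that without the 3 arrays, 0.090). The list medians on day 18 against untreated tissue were 0.13 for luteal, -0.14 for endothelial, -0.48 for fibroblast, -0.06 for smooth muscle and pericyte, 0.08 for erythrocyte and -0.28 for interferon response genes, against 0.93 for the 8 marker genes with 1 probe set each. The part of these shifts in the macrophage result was not tested.

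**Figure D5:**
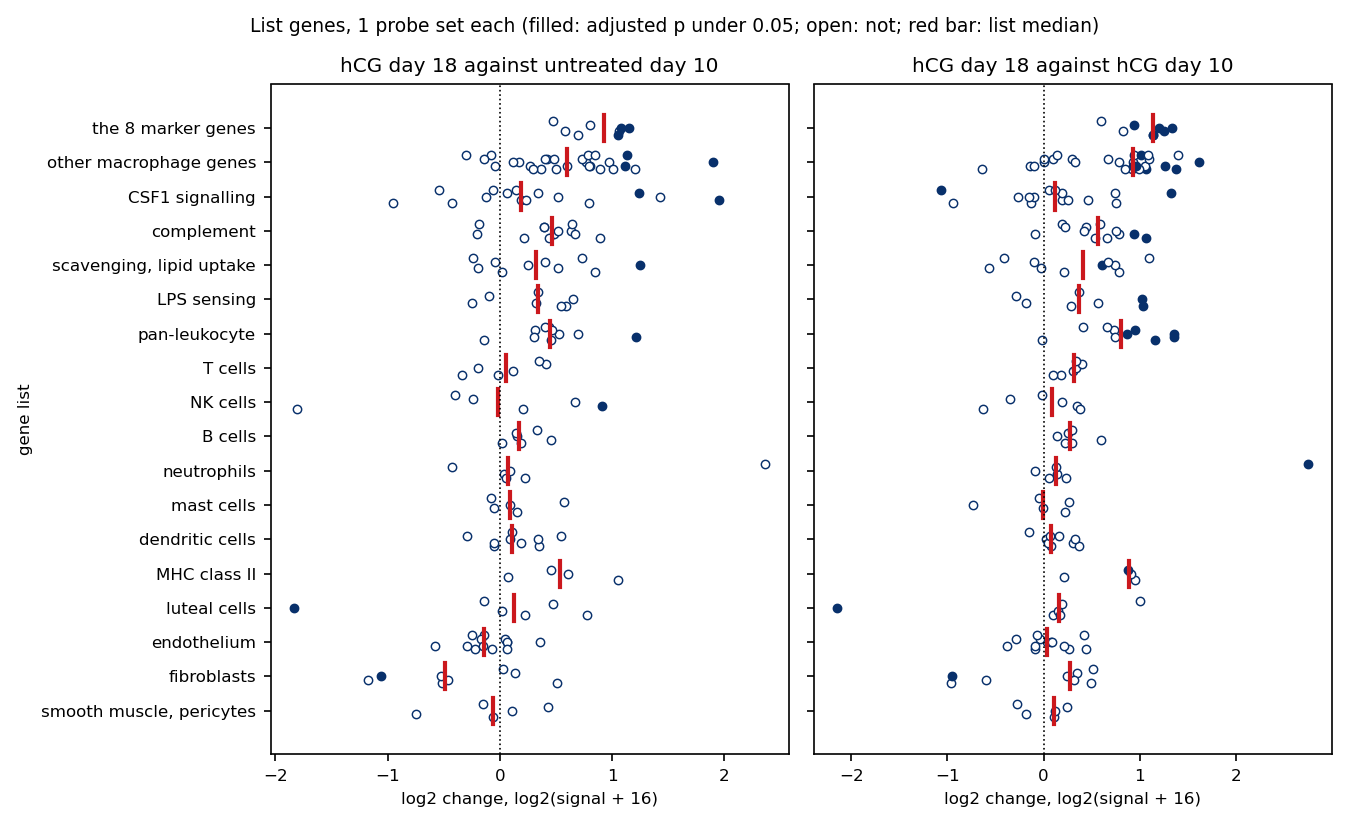
log2 change of every measured gene of the lists shown (1 probe set each) on hCG day 18 against untreated day 10 (left) and against hCG day 10 (right), with gene lists down the page. The chemoattractant, cytokine, erythrocyte and interferon response lists are not drawn. Filled points passed an adjusted p of 0.05, and the red bar is the list median. The 8 marker genes have medians of 0.93 and 1.14, the T cell genes 0.05 and 0.32.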

How the data were processed

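Biotin-labelled RNA of 20 corpora lutea was hybridised to Affymetrix arrays, and the authors deposited 1 intensity per probe set and array, made with GCOS per the submitters' processing notes; the version and settings were not given in the sources used here. The deposited intensity is linear and already scaled: the 2% trimmed mean was 200 on every array (range 200.01 to 200.02). No further normalisation was applied. Of 52865 probe sets, 158 controls were left out. Gene symbols came from the platform annotation (24956 probe sets with 1 symbol, 361 with several, 27390 with none), which can be old; of the first, 24616 matched a RefSeq gene.

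A group-means model over all 20 arrays was fitted to log2(signal + 16) with limma 3.58.1 (R 4.3.3), with 8 contrasts and an F test. Groups came from the sample labels. Figures used matplotlib 3.10.9. On data simulated with independent normal noise for hCG day 18 against untreated tissue, 54 of 100 probe sets changed by a factor of 2 were recovered. Of 100 changed by a factor of 4, 88 were recovered, with 7 false calls among the unchanged ones of the 52707 probe sets. All changed probe sets were drawn from the brighter 50%, so recovery of dim ones was not tested. The gene lists (22, with 283 entries) used the probe set with the highest mean log2 value of each gene. In each list up to 4 called genes were named per comparison, by adjusted p, and where none passed up to 2 by unadjusted p, which are given here as counts; CSF1, IL34, STAR, LUM, ISG15, genes named for a call without 3 arrays and the second C1QA probe set were picked outside this rule, with their values known. Members and lists were chosen with earlier results of these data known. Alternatives were quantile normalisation, median-centring, pseudocounts of 1 and 64, the brighter 50% of probe sets, only the 8 arrays compared, array weights, a replicate block, and fits without 3 or single arrays; for list genes and list counts these were added after the data were seen. The labels state no pairing of samples by replicate number. No promoter sequence was used here.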

Additional observations from a re-analysis of the deposited data

Results flagged for a closer look

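For MSR1, the brighter probe set had 137 on hCG day 12 replicate 1, far from the other 3 arrays of that group at 56.9 to 60.9. This was 1 of 55 combinations of probe set and group tested for a value far from the others, and chance marks about 1 in 20. The array is one of the 3 that stood apart on the third principal component, where the matrix proteoglycan gene LUM was at 558 and the interferon-induced gene ISG15 at 1005 on it, against 29.4 to 152 and 287 to 487 on the other 3 arrays of the group. It was also the highest array of its group for 8 of the 11 macrophage probe sets. No comparison of MSR1 passed the test with or without it.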

How the results depend on the processing

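Over 29 alternative fits no called result changed direction. The 3 probe sets called by the F test became 1 with median-centring, with a pseudocount of 1 and without the 3 arrays apart, and 0 to 3 when single arrays were left out (0 without hCG day 18 replicate 1 or 3, 1 without untreated replicate 3, hCG day 10 replicate 2 or 4, or hCG day 12 replicate 4). The 3 called on hCG day 18 against untreated tissue became 1 with a pseudocount of 1, 0 with only the 8 arrays compared, and 1 to 4 without single arrays (1 without hCG day 18 replicate 1 or 3, or untreated replicate 3 or 4). The 5 called against hCG day 10 tissue became 3 with median-centring and with a pseudocount of 1, and 1 to 5 without single arrays (1 without hCG day 18 replicate 1, 2 without hCG day 18 replicate 3 or hCG day 10 replicate 2, 3 without any other hCG day 10 replicate). The cause of these changes was not tested. Counts in the other 6 comparisons were 0 throughout. Median-centring moved all changes by 0.12, 0.14, 0.11 and 0.05 on hCG days 10, 12, 15 and 18 against untreated tissue. The labels state no pairing of samples by replicate number. Deviations of same-numbered arrays correlated at -0.28 to 0.36 in 40 pairs, 14 of them over 0.1, which cannot settle whether samples were paired. With the replicate block the 3 counts were 4, 4 and 6, with C1QB passing against untreated tissue (adjusted p = 0.037 by limma) and MSR1 against hCG day 10 tissue (0.046).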
